A study of Mus musculus with 6 samples.

Results

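Rgs2, Rgs4, Rgs5 and Rgs16 are 4 of the 23998 gene symbols measured in single cells of mouse kidney, and they were chosen by name as regulators of G protein signalling. The cells were sorted from digested kidney into 6 plates with Smart-seq2, a plate method that sequences whole transcripts of 1 cell per well, and each plate held cells from 3 mice: 1 at day 2 after unilateral ureteric obstruction (UUO), 1 at day 10 and 1 healthy. In UUO a ureter is tied off, and the blocked kidney loses tubules and scars. The labels give no strain, age, sex or reporter allele for any group, and the sort had 2 gates named mesenchyme and endothelia. Reads were summed per gate, condition and layout number, giving 24 sums with 4 per gate and condition. No label states what the number means. It is taken here, as an assumption, to stand for 1 mouse of a condition. Each condition filled the same plate columns on every plate, so condition and plate column cannot be told apart.

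RGS proteins speed the hydrolysis of GTP by the alpha subunits of heterotrimeric G proteins, which shortens the signal of a receptor coupled to them. Rgs2 acts preferentially on the Gq alpha subunit, through which angiotensin II, endothelin and noradrenaline contract smooth muscle, and mice without Rgs2 have raised blood pressure. Rgs4, Rgs5 and Rgs16 act on Gi and Gq alpha subunits. Rgs5 is a widely used marker of pericytes and arterial smooth muscle, and the proteins of Rgs4, Rgs5 and Rgs16 are substrates of the oxygen-dependent Arg/N-degron pathway, which destroys them through their N-terminal cysteine. Transcript levels as measured here do not show that step.

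All 4 genes lie on chromosome 1 of GRCm38 (mm10) in the GENCODE vM21 annotation. Rgs2 spans 143999338 to 144004161 on the minus strand, and Rgs16 spans 153740349 to 153745468 on the plus strand. Rgs5 spans 169655501 to 169695813 on the plus strand and Rgs4 spans 169741477 to 169747642 on the minus strand, so that their 3′ ends face each other across a gap of 45664 bases. Rgs16 overlaps the antisense gene Gm28513, which has no entry in the count tables, and strandedness of the counting is not given in the sources used here, so reads of that pair cannot be told apart.

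The 250 bases before each transcription start are shown because Rgs4 and Rgs5 are neighbours with much the same cell distribution, whereas Rgs16 has a different one. They come from RefSeq on GRCm38.p6: chr1:144004150-144004399 on the minus strand for Rgs2, chr1:169747643-169747892 on the minus strand for Rgs4, chr1:169655251-169655500 on the plus strand for Rgs5 and chr1:153740103-153740352 on the plus strand for Rgs16. Each is written 5′ to 3′ along the gene, and capitals mark matches on either strand to the CCAAT box, the TATA box, the GC box or the cyclic AMP response half-site.
Rgs2: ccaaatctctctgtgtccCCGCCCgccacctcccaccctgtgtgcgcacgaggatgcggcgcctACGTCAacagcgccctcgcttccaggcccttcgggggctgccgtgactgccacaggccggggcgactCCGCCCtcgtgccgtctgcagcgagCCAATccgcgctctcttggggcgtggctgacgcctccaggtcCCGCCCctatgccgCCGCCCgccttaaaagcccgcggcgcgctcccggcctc
Rgs4: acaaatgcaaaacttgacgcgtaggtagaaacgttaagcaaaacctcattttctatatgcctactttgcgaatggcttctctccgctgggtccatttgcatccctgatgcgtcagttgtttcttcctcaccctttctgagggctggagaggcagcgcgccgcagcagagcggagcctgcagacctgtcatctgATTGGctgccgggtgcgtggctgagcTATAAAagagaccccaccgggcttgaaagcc
Rgs5: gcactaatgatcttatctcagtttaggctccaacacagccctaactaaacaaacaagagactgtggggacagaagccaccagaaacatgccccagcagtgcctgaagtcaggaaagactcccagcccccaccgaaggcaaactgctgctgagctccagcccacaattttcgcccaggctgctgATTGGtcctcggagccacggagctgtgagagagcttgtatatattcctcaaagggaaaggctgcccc
Rgs16: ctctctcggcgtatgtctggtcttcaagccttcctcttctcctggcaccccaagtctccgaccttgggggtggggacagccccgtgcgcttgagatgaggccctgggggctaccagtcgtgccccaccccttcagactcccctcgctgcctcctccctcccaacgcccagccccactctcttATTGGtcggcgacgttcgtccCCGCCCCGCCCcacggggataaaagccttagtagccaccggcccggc
Each of the 4 windows held a CCAAT box, written ATTGG in Rgs4, Rgs5 and Rgs16, where it ends 53, 63 and 64 bases before the start, and CCAAT in Rgs2, where it ends 90 bases before it. A CCAAT match was present in 33.8% of 32851 promoter windows of the same length. Only Rgs4 among the 4 held the TATA box TATAAA, from 31 to 26 bases before its start, a match found in 12.4% of the windows. Rgs2 held 4 matches to the GC box GGGCGG and Rgs16 held 2 that overlap, against 32.7% of windows with at least 1, and Rgs2 held the cyclic AMP response half-site TGACGT, found in 6.47% of windows. None of the 4 held the AP-1 motif TGANTCA, found in 6.75% of windows, or a CArG box, the motif bound by serum response factor, found in 1.47%. G and C made up 72.4% of the Rgs2 window and 66.4% of the Rgs16 window, against 53.6% in both Rgs4 and Rgs5.

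Of 2292 sorted wells, 2235 held at least 1000 genes and 20000 reads, and 2057 of them fell in a cluster whose class matched their gate. Total gene reads of the sums lay between 19382742 and 56326210, and median reads per well by gate and condition between 312617 and 447221. The 12 control wells held a median of 3264 reads, with 20 reads of Rgs5 in all, 6 of Rgs4, 3 of Rgs2 and 1 of Rgs16. Levels are in CPM, the reads of a gene scaled to a fixed total of gene reads. CPM of sums are scaled by TMM, a correction for composition between sums, whereas CPM of clusters are pooled reads with no such scaling. Limits set by a count of 0 cover counting error only. Where the sums of 2 groups are said not to overlap, this describes the gene named. The share of all genes with such a separation was not counted.

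Among healthy kidneys, Rgs2, Rgs4 and Rgs5 were genes of the mesenchyme gate, while Rgs16 was present in both gates at low levels. Rgs5 had 3891, 4890, 2585 and 4538 CPM in the healthy mesenchyme gate (numbers 1 to 4), against 6.65, 62.5, 0.285 and 1.03 CPM in the healthy endothelia gate. Rgs4 had 980, 1105, 468 and 831 CPM in the mesenchyme gate, against 0.445, 0.579, 0.142 and 0.652 CPM in the endothelia gate. The gates did not overlap for either gene, and each mesenchyme sum was more than an order of magnitude above every endothelia sum. Rgs2 had 1471, 2402, 905 and 1229 CPM in the mesenchyme gate, against 166, 237, 108 and 198 CPM in the endothelia gate, also without overlap but with a clear endothelial level. Rgs16 had 10.0, 28.3, 20.3 and 8.36 CPM in the mesenchyme gate, against 9.32, 102, 15.6 and 42.9 CPM in the endothelia gate, and those ranges overlapped.

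In edgeR's quasi-likelihood test with Benjamini-Hochberg adjustment, 3 of the 4 genes were higher in the healthy mesenchyme gate. The log2 fold change over the endothelia gate was 10.83 ± 1.08 (SE) for Rgs4 with an adjusted p of 4.23e-07, 8.48 ± 1.40 for Rgs5 with an adjusted p of 1.40e-04, and 3.09 ± 0.41 for Rgs2 with an adjusted p of 1.10e-05. Rgs16 did not pass, at -1.33 ± 0.69 and an adjusted p of 0.180. Of 16116 genes tested in that comparison 23.9% were called, 11.3% higher and 12.7% lower, so a call is common there.

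Levels of different genes are comparable only per length, and CPM was therefore divided by the exon length in kilobases (3.627 for Rgs2, 3.098 for Rgs4, 4.546 for Rgs5 and 2.339 for Rgs16). In the healthy mesenchyme gate, the level per kilobase was 875 ± 223 for Rgs5, 414 ± 177 for Rgs2, 273 ± 89.1 for Rgs4 and 7.15 ± 4.0 for Rgs16 (CPM per kilobase, SD, n = 4). The means per kilobase of Rgs2 and Rgs4 stood at 414 and 273 in healthy kidneys, 333 and 382 at day 2, and 331 and 265 at day 10. Their ranges overlapped across numbers at each time. Within the same sum, Rgs2 was above Rgs4 in each number in healthy kidneys and at day 10. At day 2, Rgs4 was above Rgs2 in numbers 1, 2 and 3 and below it in number 4. That order was not tested. Rgs5 kept the highest mean per kilobase of the 4 in that gate at each time.

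**Figure D1:**
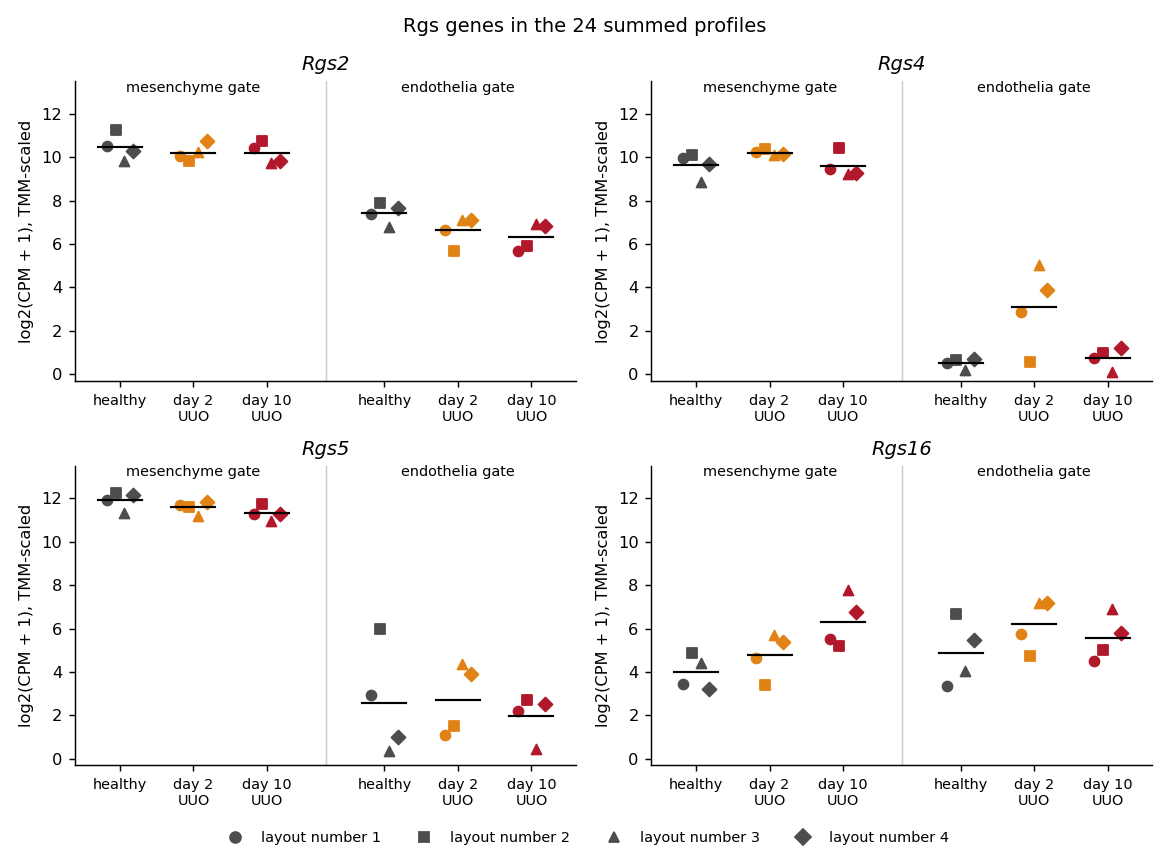
Level of each gene in the 24 sums, as log2(CPM + 1) after TMM scaling, with 1 point per layout number and a bar at the mean of each gate and condition. Rgs4 and Rgs5 lie above 8 on this scale in each mesenchyme sum and below 7 in each endothelia sum, while the Rgs16 sums of the gates share a range.

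The wells with these genes were then located by clustering, with the 4 genes left out of the clustering genes so that they could not form the clusters. Rgs5 and Rgs4 had their highest pooled levels in a cluster of 237 wells led by Ephx3, at 5543 and 1891 CPM. That cluster held the pericyte markers Pdgfrb, Cspg4, Notch3 and Ephx3 together with smooth muscle markers, and it stayed unnamed because its 10 leading genes held as many markers of the pericyte list as of the smooth muscle list. Rgs2 was low there, at 199 CPM. Rgs2 peaked instead in the mesangial-like cluster of 87 wells, at 3533 CPM, where Rgs5 had 907 CPM and Rgs4 338 CPM. Mesangial cells are the contractile support cells of the glomerulus.

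The vascular smooth muscle-like wells formed clusters 8 and 11, which carried Rgs2 at 2147 and 2073 CPM, Rgs5 at 4443 and 3947 CPM, and Rgs4 at 770 and 1251 CPM. A cluster of 66 wells led by Ren1, the gene of renin, had 3065 CPM of Rgs5, 1742 CPM of Rgs2 and 770 CPM of Rgs4. Fibroblast-like wells were low in all 3, with 51.0 CPM of Rgs5, 55.1 CPM of Rgs2 and 22 CPM of Rgs4. Rgs4 and Rgs5 thus shared their highest cluster and then the smooth muscle-like and Ren1-led ones, whereas Rgs2 was highest where both were intermediate. Pearson's r over the 18 clusters of log2(pooled CPM + 1) was 0.96 between Rgs4 and Rgs5, 0.72 between Rgs2 and Rgs4 and 0.68 between Rgs2 and Rgs5, as a description over clusters that share plates.

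Rgs16 followed none of the other members, with r of -0.07 to Rgs2, 0.14 to Rgs4 and 0.04 to Rgs5 over the same clusters. Its highest pooled levels were 306 CPM in the arterial endothelium-like cluster of 182 wells and 299 CPM in the fibroblast-like cluster of 94 wells. An endothelial cluster of 50 wells led by Aqp1, the water channel of the descending vasa recta among other sites, had 134 CPM, and the Ephx3-led cluster had 105 CPM. Smooth muscle-like clusters 8 and 11 had 0.583 and 2.07 CPM. The mesangial-like cluster had Rgs16 reads in 0 of 87 wells, which allows a share of up to 3.45%.

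**Figure D2:**
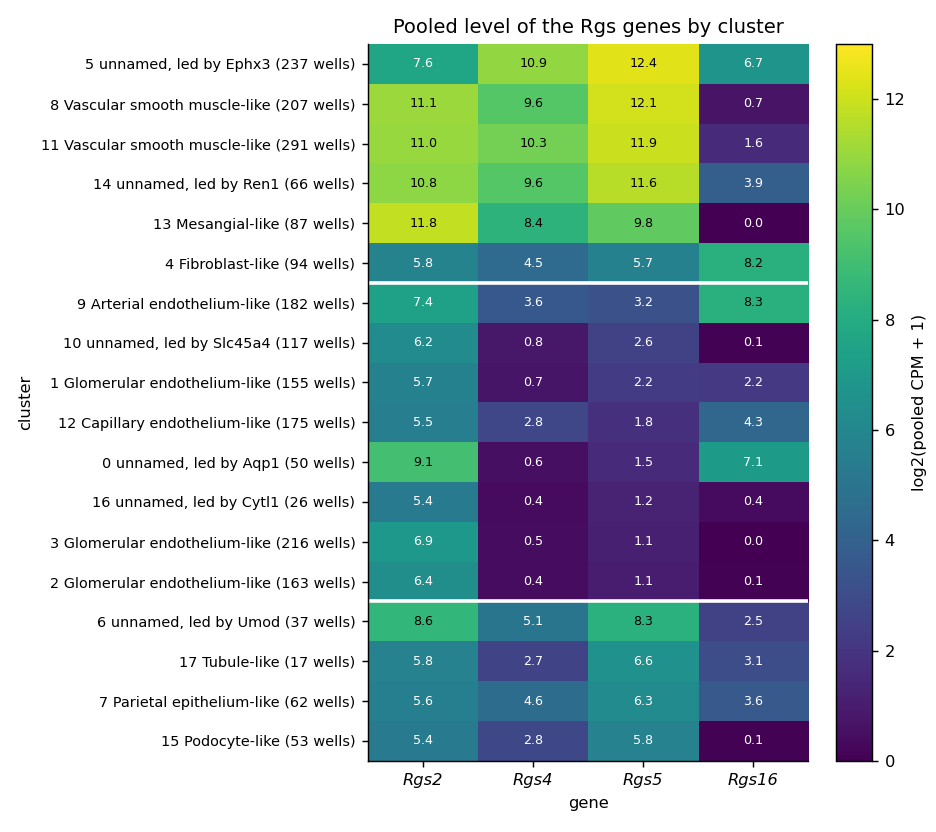
Pooled level of each gene in the 18 clusters as log2(CPM + 1), with mesenchymal clusters on top, endothelial ones in the middle and other classes below. Rgs5 and Rgs4 peak in the Ephx3-led cluster, Rgs2 in the mesangial-like cluster, and Rgs16 in arterial endothelium-like and fibroblast-like wells.

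Most single wells of the smooth muscle class held at least 1 read of each of the 3 mural members. Wells of this class with only 1 or 2 reads were not counted apart. The median healthy well of the class had 1856 CPM of Rgs2, 496 CPM of Rgs4 and 4465 CPM of Rgs5. Reads of Rgs2, Rgs4 and Rgs5 occurred together in 158 of 195 healthy vascular smooth muscle-like wells, in 158 of 172 at day 2 and in 107 of 130 at day 10. Rgs5 was detected in each of these wells. In the endothelia gate, Rgs5 reads occurred in 26.8% of healthy wells, but 92 of those 102 wells held at most 2 reads, and 7 of 12 control wells also held Rgs5 reads. A single well held 79.8% of the healthy endothelial Rgs5 reads, and it fell in smooth muscle-like cluster 8. Rgs4 reads occurred in 11.6% of healthy endothelia wells, of which 42 of 44 held at most 2 reads, against 3 of 12 control wells. Shares of endothelia wells with Rgs4 or Rgs5 thus did not exceed those of wells without a sorted cell, a loose bound since only 12 such wells exist. The shares are therefore not read as expression, and whether they are background was not tested. Rgs2 reached at least 100 reads in 54 healthy endothelia wells and Rgs16 in 16.

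Within vascular smooth muscle-like wells, Rgs4 rose at both times of UUO while Rgs5 and Rgs2 did not pass the test. Rgs4 had 774, 830, 485 and 617 CPM in healthy kidneys (numbers 1 to 4), 1667, 1587, 1204 and 1038 CPM at day 2, and 985, 1769, 1044 and 982 CPM at day 10. Each UUO sum was above each healthy sum. The log2 fold change over healthy was 1.03 ± 0.15 (SE) at day 2, with an adjusted p of 0.00906 by edgeR's quasi-likelihood test, and 0.81 ± 0.15 at day 10, with an adjusted p of 0.0351. Of 11952 genes tested there, 1% passed at day 2 and 0.979% at day 10, with 0.669% and 0.619% higher, and Rgs4 was the 1 member called at each time. The calls rest on the block for number, since the fit without that replicate block gave 1.02 with an adjusted p of 0.0713 at day 2 and 0.82 with an adjusted p of 0.179 at day 10. They were also lost without number 3 and without number 4 at both times, and without number 2 at day 10, with changes from 0.71 to 1.12 and adjusted p from 0.0782 to 0.232.

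The smooth muscle-like class was split by condition between its clusters, with 183 of 195 healthy mesenchyme-gate wells of the class in cluster 8 and 157 of 172 day 2 wells and 122 of 130 day 10 wells in cluster 11. Pooled Rgs4, with no test, was higher at day 2 in both clusters and at day 10 in cluster 11. Cluster 8 had 1678 CPM in 15 day 2 wells against 688 CPM in 184 healthy wells, and cluster 11 had 705 CPM in 12 healthy wells, 1276 CPM in 157 day 2 wells and 1264 CPM in 122 day 10 wells. Only 8 day 10 wells of the gate fell in cluster 8, with 1704 reads of Rgs4 and 10470 reads of Rgs5, against 43638 and 288151 reads in the 183 healthy ones, and no day 10 level is given for so few wells. The share of smooth muscle-like wells with an Rgs4 read was 82.1% in healthy kidneys, 94.2% at day 2 and 89.2% at day 10, and the median well had 496, 1005 and 921 CPM in that order. The summed level of the 8 pericyte markers in these sums ran from 1571 to 2612 CPM in healthy kidneys, from 1896 to 2731 at day 2 and from 1723 to 2948 at day 10. That of the 8 fibroblast markers ran from 101 to 327, from 108 to 246 and from 177 to 373 CPM, with Pdgfra at most 1.69 CPM and Dcn at most 4.90 CPM. Col1a1, a collagen gene of that list, ran from 12.7 to 27.5 CPM in healthy kidneys, from 21.3 to 35.0 at day 2 and from 39.1 to 74.4 at day 10, so its day 10 sums lay above all healthy ones. Ren1 ran from 7.02 to 42.8 CPM in healthy kidneys, from 55.8 to 85.3 at day 2 and from 86.7 to 247 at day 10, above all healthy sums at both times. Ephx3, the leading gene of the unnamed cluster that is rich in Rgs4, ran from 9.72 to 35.4 CPM in healthy kidneys, from 36.5 to 93.0 at day 2 and from 12.8 to 72.0 at day 10. The 8 smooth muscle markers had a median sum of 50920 CPM in healthy kidneys, 41565 at day 2 and 39050 at day 10, and the UUO sums lay below all healthy ones. The part of these levels in the Rgs4 result was not tested.

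Rgs5 in the same sums had 4553, 4842, 3259 and 4909 CPM in healthy kidneys, 3850, 4500, 2429 and 3928 CPM at day 2, and 4395, 4349, 3165 and 4265 CPM at day 10. Each number had less Rgs5 at both UUO times than when healthy, although the 3 groups overlapped across numbers. The log2 fold change was -0.27 ± 0.08 at day 2 (adjusted p = 0.233) and -0.11 ± 0.08 at day 10 (adjusted p = 0.736). The day 2 value passed in DESeq2, with an adjusted p of 0.0257, and in sums per plate, with 0.0459. Rgs2 had 2131, 3071, 1896 and 2155 CPM in healthy kidneys, 1582, 1735, 1964 and 2516 CPM at day 2, and 1380, 2074, 1918 and 2319 CPM at day 10. Its groups overlapped too, with log2 fold changes of -0.25 ± 0.16 (adjusted p = 0.713) and -0.28 ± 0.16 (adjusted p = 0.609). The ratio of Rgs4 to Rgs5, given as a description, had a mean of 0.154 in healthy kidneys (0.126 to 0.171), 0.386 at day 2 (0.264 to 0.495) and 0.298 at day 10 (0.224 to 0.407), and the UUO sums did not overlap the healthy ones. Rgs16 held at most 7.75 CPM in any of these sums and at most 1 read in each healthy one, so no fold change is given.

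**Figure D3:**
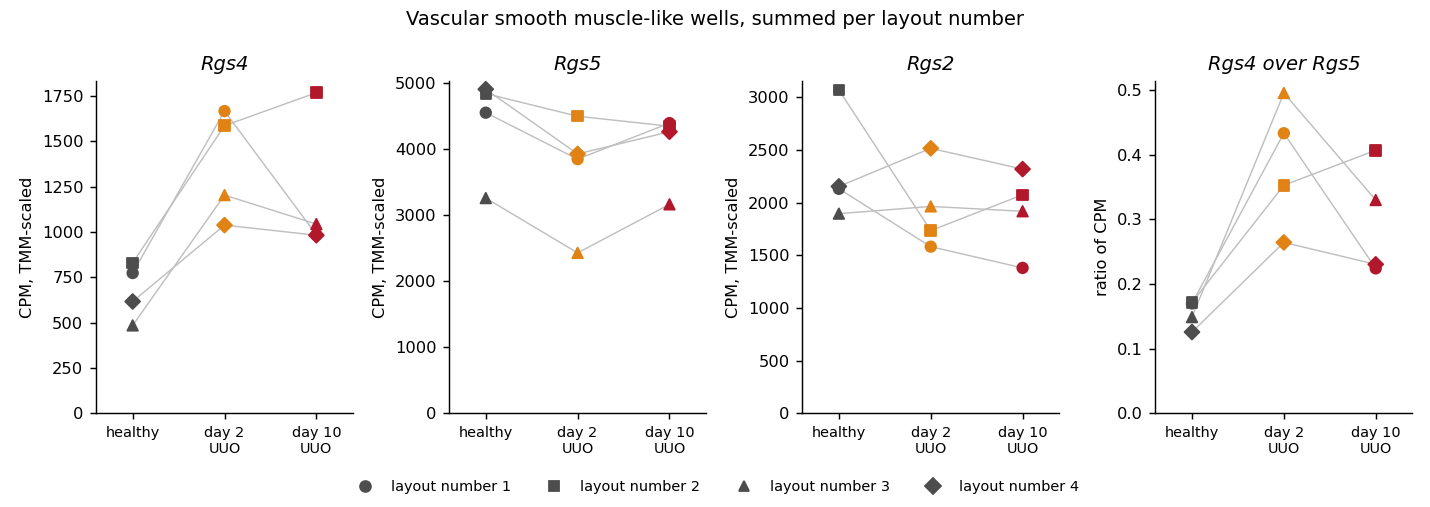
Levels in vascular smooth muscle-like wells summed per layout number (CPM after TMM scaling, axes from 0), with lines joining the same number across conditions, and the ratio of Rgs4 to Rgs5. Each of the 4 lines for Rgs4 and for the ratio is higher at both UUO times than in healthy kidneys, which is not so for Rgs5 or Rgs2.

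In the other mural clusters the Rgs4 levels did not share 1 pattern. The Ephx3-led cluster had 1899 CPM in 95 healthy wells, 1936 CPM in 97 day 2 wells and 1767 CPM in 45 day 10 wells. The numbers in that cluster ran from 868 to 2647 CPM in healthy kidneys and from 1722 to 2380 CPM at day 2, so their ranges overlapped. The mesangial-like cluster had 129 CPM of Rgs4 in 25 healthy wells, 411 CPM in 21 day 2 wells and 430 CPM in 41 day 10 wells. There 1 well held 70.0% of the day 2 reads, and too few numbers held 10 wells for a test.

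Over the whole mesenchyme gate, Rgs5 fell at day 10 of UUO. It had 3891, 4890, 2585 and 4538 CPM in healthy kidneys, 3321, 3097, 2297 and 3629 CPM at day 2 and 2463, 3439, 1995 and 2481 CPM at day 10. All 4 numbers had less Rgs5 at day 10 than when healthy, although the 2 groups overlapped across numbers. The log2 fold change was -0.59 ± 0.12 (SE) at day 10 with an adjusted p of 0.0457 by edgeR's quasi-likelihood test, and -0.33 ± 0.12 at day 2 with an adjusted p of 0.387. Of 14582 genes tested in this gate, 1.32% passed at day 10 (0.658% lower) and 0.459% at day 2, and Rgs5 at day 10 was the only call among the 4 members. Sums cannot tell fewer cells of a type from less RNA per cell.

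The day 10 call for Rgs5 lies close to the threshold. It was lost without the replicate block, at -0.61 with an adjusted p of 0.255, and without number 1, 3 or 4, at -0.51 to -0.65 with adjusted p from 0.163 to 0.287. Fibroblast-like wells, which are low in Rgs5, were 11 of 364 wells of the healthy gate, 15 of 366 at day 2 and 66 of 376 at day 10. The Ephx3-led cluster held 94, 96 and 44 wells of the gate in that order. The summed level of the 8 fibroblast markers ran from 832 to 4782 CPM at day 10, against 315 to 1998 CPM in healthy kidneys. That of the 8 pericyte markers ran from 1680 to 2241 CPM at day 10, against 2844 to 3411 CPM in healthy kidneys, and that of the 8 smooth muscle markers from 16639 to 25373 CPM, against 31814 to 35608 CPM. Among wells whose cluster matches the gate the day 10 change of Rgs5 was -0.55 ± 0.10 with an adjusted p of 0.0196. When the fibroblast-like cluster was left out of these wells, an alternative chosen after the data were seen, it was -0.27 ± 0.10 with an adjusted p of 0.374.

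Rgs4 and Rgs2 passed in neither comparison of the whole gate with healthy kidneys. Rgs4 had 980, 1105, 468 and 831 CPM in healthy kidneys, 1210, 1318, 1083 and 1122 CPM at day 2 and 693, 1373, 596 and 618 CPM at day 10. Day 2 was higher than healthy in each number, with a log2 fold change of 0.56 ± 0.19 and an adjusted p of 0.353, whereas the day 10 change was -0.06 ± 0.19 with an adjusted p of 0.938. The day 2 sums overlapped the healthy ones only at number 2 of healthy kidneys, and number 2 stood above the other 3 at day 10. Day 10 against day 2 gave -0.62 ± 0.19 on the log2 scale with an adjusted p of 0.369, in a comparison that called 0.048% of genes and none of the 4 members. Rgs2 had 1471, 2402, 905 and 1229 CPM in healthy kidneys, 1043, 905, 1191 and 1694 CPM at day 2 and 1354, 1686, 858 and 902 CPM at day 10. Its groups overlapped at each time, and its log2 fold changes were -0.20 ± 0.28 (adjusted p = 0.870) and -0.29 ± 0.27 (adjusted p = 0.718).

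Rgs16 had the largest fitted change of the 4 members in the mesenchyme gate but did not pass there. Rgs16 had 10.0, 28.3, 20.3 and 8.36 CPM in healthy kidneys, 24.3, 9.66, 51.6 and 41.1 CPM at day 2 and 44.1, 35.4, 215 and 109 CPM at day 10. The day 10 sums lay above all healthy sums, whereas the day 2 sums overlapped them. The log2 fold change was 2.26 ± 0.61 at day 10 (adjusted p = 0.110) and 0.74 ± 0.59 at day 2 (adjusted p = 0.737). The day 10 value passed in DESeq2 (2.27, adjusted p = 0.000443), in sums per plate (2.57, adjusted p = 0.0358), with equal weight per well (2.44, adjusted p = 0.0181) and without number 2 (3.10, adjusted p = 0.0111). It ranged from 1.58 to 3.10 over all alternatives, with adjusted p from 0.000443 to 0.409.

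The wells behind these sums were few. An Rgs16 read was present in 22 of 364 healthy wells of the mesenchyme gate, in 36 of 366 at day 2 and in 79 of 376 at day 10, and by number the shares ran from 4.17% to 8.2%, from 3.13% to 15.6% and from 12.5% to 37.7%. With each well thinned to 100000 reads, which left out 14, 6 and 14 shallower wells, the shares were 4.86%, 8.33% and 19.6%. Of the Rgs16 reads, the Ephx3-led cluster gave 99.1% in healthy kidneys, 57.8% at day 2 and 38.7% at day 10, while the fibroblast-like cluster gave 36.3% at day 2 and 56.6% at day 10. The fibroblast-like cluster had 3.57 CPM in 11 healthy wells, with reads in 1 of them, 348 CPM in 15 day 2 wells with reads in 7, and 348 CPM in 68 day 10 wells with reads in 45. These levels are over the wells of both gates, and 66 of the 68 day 10 wells were in the mesenchyme gate. The fibroblast-like wells of numbers 1 to 4 were 1, 0, 2 and 8 in healthy kidneys and 5, 0, 5 and 5 at day 2. No number thus held 10 of them at either time, and the change within this cluster was not tested. The Ephx3-led cluster, also over both gates, had 54.1 CPM in 95 healthy wells, 73.4 CPM in 97 day 2 wells and 295 CPM in 45 day 10 wells. Among wells of mesenchymal clusters without the fibroblast-like one, the day 10 change of Rgs16 was 1.58 ± 0.49 with an adjusted p of 0.233.

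**Figure D4:**
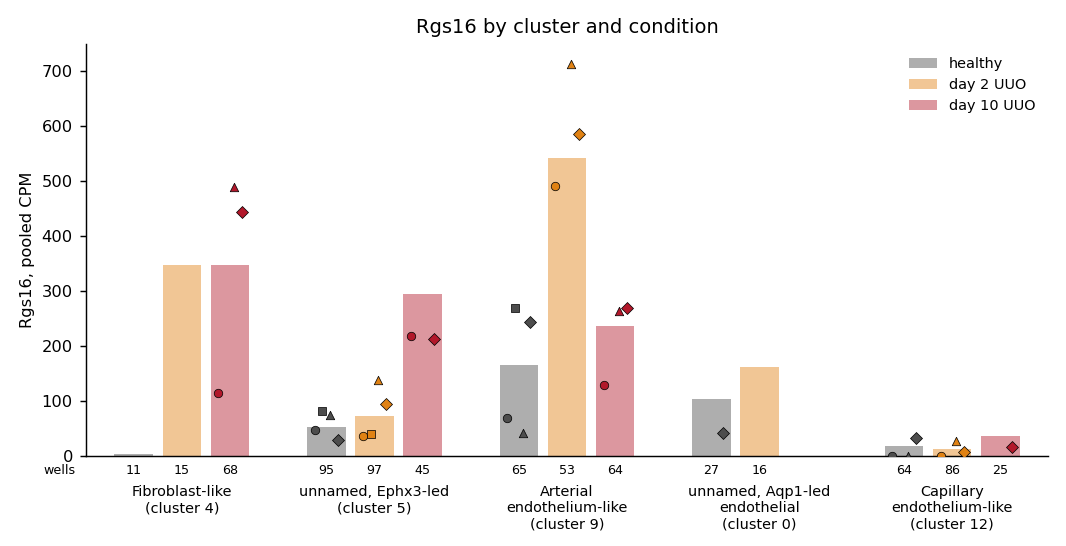
Pooled Rgs16 CPM (bars) by condition in the clusters with most of its reads, with the number of wells under each bar and a point for each layout number with at least 10 wells. The fibroblast-like bar stands at 3.57 CPM in healthy kidneys and at 348 CPM at both UUO times, and the arterial endothelium-like bar is highest at day 2. No number had 10 fibroblast-like wells in healthy kidneys or at day 2, so those bars show no spread between numbers. Differences between bars were not tested.

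In the endothelia gate, none of the 4 members passed edgeR's quasi-likelihood test, in comparisons that called 0.15% of 14026 genes at day 2 against healthy, 0.649% at day 10 against healthy and 0.0143% at day 10 against day 2. At an unadjusted p under 0.05, 2 members, 1 member and 1 member were counted in that order, and DESeq2 called 1 member in each comparison. Rgs2 had 166, 237, 108 and 198 CPM in healthy kidneys, 97.6, 50.1, 138 and 135 CPM at day 2 and 49.8, 59.7, 122 and 114 CPM at day 10. The log2 fold change was -0.86 ± 0.37 at day 2 (adjusted p = 0.549) and -1.17 ± 0.37 at day 10 (adjusted p = 0.237), and 3 of 4 numbers were lower than healthy at both times while number 3 was not. The day 10 value passed in DESeq2, with an adjusted p of 0.0256. The Aqp1-led cluster had 280 CPM of Rgs2 in 16 day 2 wells, against 788 CPM in 27 healthy wells. The arterial endothelium-like cluster had 313 CPM in 65 healthy wells, 151 CPM in 53 day 2 wells and 86.3 CPM in 64 day 10 wells, and its numbers ran from 75.3 to 473 CPM in healthy kidneys, so the groups overlapped.

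Rgs16 in the endothelia gate had 9.32, 102, 15.6 and 42.9 CPM in healthy kidneys, 53.1, 25.6, 141 and 145 CPM at day 2 and 21.5, 31.4, 117 and 53.8 CPM at day 10. The groups overlapped, and the log2 fold changes were 1.24 ± 0.79 (adjusted p = 0.767) and 0.40 ± 0.76 (adjusted p = 0.918). The arterial endothelium-like cluster gave 71.3% of these reads in healthy kidneys, 89.0% at day 2 and 86.2% at day 10. Its pooled level was 165 CPM in healthy kidneys, 543 CPM at day 2 and 237 CPM at day 10. The 3 numbers with at least 10 wells at day 2 had 491, 714 and 587 CPM, against 69.2, 269, 43.2 and 244 CPM in the 4 healthy numbers, without overlap and with no test of that cluster. The remaining number had fewer than 10 wells of the cluster at day 2 and has no value in this contrast. Over the whole gate, number 2 had less Rgs16 at day 2 than when healthy, at 25.6 against 102 CPM, while numbers 1, 3 and 4 had more.

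Rgs4 and Rgs5 in the endothelia gate were low, and at day 2, as for healthy Rgs5, 1 well gave a large share of the reads. Rgs4 had 6.4, 0.461, 31.8 and 13.6 CPM at day 2, against 0.445, 0.579, 0.142 and 0.652 CPM in healthy kidneys, a log2 fold change of 4.72 ± 1.62 with an adjusted p of 0.432 by edgeR and 0.00367 by DESeq2. Only 3 of 368 day 2 wells held at least 100 Rgs4 reads, and 1 of them held 44.6% of the total. In the arterial endothelium-like cluster at day 2, 1 well gave 98.6% of the Rgs4 reads. At day 10 no endothelia well held 100 reads of Rgs4. Rgs5 at day 2 had 1.11, 1.89, 19.4 and 14.1 CPM, and 1 well held 49.8% of those reads. That well fell in the mesenchymal Ephx3-led cluster. At day 10 Rgs5 had 3.58, 5.46, 0.38 and 4.79 CPM. The highest well held 21.1% of the day 10 Rgs5 reads and 27.1% of the day 10 Rgs4 reads, against 16.7% of the healthy Rgs4 reads.

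The test of the difference between gates passed for no member at either time, in comparisons that called 0.0683% of 16116 genes for day 2 and 0.254% for day 10. The closest were Rgs4 at day 2, where the mesenchyme change minus the endothelia change was -4.39 ± 1.10 on the log2 scale with an adjusted p of 0.228, and Rgs16 at day 10, at 2.18 ± 0.95 with an adjusted p of 0.386. DESeq2 called the first, with an adjusted p of 0.00159. Its endothelia change rests on few wells, since 3 of 368 day 2 wells held at least 100 Rgs4 reads. Of the day 2 Rgs4 reads of that gate, 1 well in the mesenchymal Ephx3-led cluster gave 35.9%. At an unadjusted p under 0.05, 1 member was counted at each time.

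**Figure D5:**
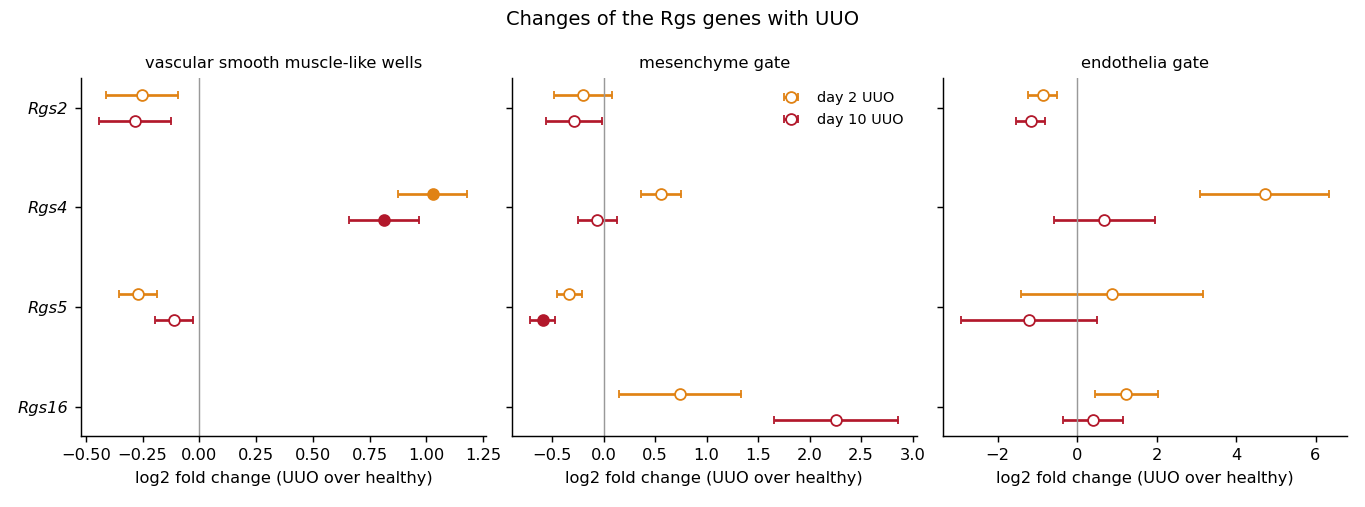
Log2 fold change of each gene, UUO over healthy, with its SE, in vascular smooth muscle-like wells, the mesenchyme gate and the endothelia gate, each panel with its own scale. Filled points passed at an adjusted p under 0.05, namely Rgs4 at both times in smooth muscle-like wells and Rgs5 at day 10 in the mesenchyme gate.

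Among 19 other genes listed with the Rgs family, 9 passed the filter on low counts in the mesenchyme gate. By edgeR 0 of them passed at day 2 and 1 passed at day 10, where 1.32% of all genes did, with 2 at an unadjusted p under 0.05 at each time and 0 and 2 called by DESeq2. The 1 gene was Rgs7bp, whose product binds Rgs7-type proteins, anchors them at the membrane and has no RGS domain itself, so no RGS protein gene of the list passed by edgeR at either time. Rgs7bp fell by 0.93 ± 0.18 on the log2 scale at day 10 (adjusted p = 0.0346), with means of 216 CPM at day 10 and 403 CPM in healthy kidneys. It also fell by 0.83 ± 0.14 within smooth muscle-like wells at day 2 (adjusted p = 0.0179). It was 1 of 8 genes of the list tested there, where 1% of all genes were called. Of 14 genes of the list tested between the healthy gates, 1 was higher and 2 were lower in the mesenchyme gate by edgeR. Over all genes 11.3% were higher and 12.7% lower there, so a call is common in that comparison. Rgs3 was lower in the mesenchyme gate, with a mean of 12.5 CPM in the healthy mesenchyme gate and 330 CPM in the healthy endothelia gate, a log2 fold change of -4.68 ± 0.41 (adjusted p = 7.99e-08). Rgs19 was also lower in the mesenchyme gate, by -2.38 ± 0.48 (adjusted p = 0.000987), and Rgs7bp was higher, by 5.66 ± 0.80 (adjusted p = 2.56e-05).

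Of 12 G protein alpha subunit genes, with those of the Gs and G12 classes included, 11 were tested in the mesenchyme gate and none passed edgeR's quasi-likelihood test at either time. At an unadjusted p under 0.05 there were 0 at day 2 and 3 at day 10, and DESeq2 called 0 and 1. Their median log2 change was 0.17 at day 2 and -0.06 at day 10, against 0.01 and 0.04 over all genes tested. Among 30 receptors coupled to Gq or Gi, 29 were tested, and 0 passed at day 2, where 6 had an unadjusted p under 0.05 and DESeq2 called 5. At day 10, 1 of the 29 receptors passed, where 1.32% of all genes were called. It was F2r, the thrombin receptor, which rose by 0.77 ± 0.16 (adjusted p = 0.0461). Of the 29 at day 10, 8 had an unadjusted p under 0.05 and DESeq2 called 6. Over all 14582 genes, 1997 had an unadjusted p under 0.05 at day 10 and DESeq2 called 1155. Of 18 tested genes of Gq effectors and contraction, 1 fell at day 2, where 0.459% of all genes were called, and 2 fell at day 10, where 1.32% were called and 0.658% were lower. At an unadjusted p under 0.05 there were 4 and 5 in that order, and DESeq2 called 3 and 4. Ppp1r12a, the targeting subunit of myosin phosphatase, had -0.77 ± 0.14 at day 2 (adjusted p = 0.0499). At day 10 the kinase gene Rock1 had -0.86 ± 0.13 (adjusted p = 0.0117) and Mylk, the myosin light chain kinase, had -0.59 ± 0.11 (adjusted p = 0.0243).

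Within smooth muscle-like wells at day 2, 2 of 16 tested genes of the effector list fell, where 1% of all genes were called. In that list 8 had an unadjusted p under 0.05 and DESeq2 called 5. Ppp1r12a, of smallest p in the list, had -0.83 ± 0.12 (adjusted p = 0.00902). Of 23 receptors tested there, 0 passed at day 2 by edgeR, with 6 at an unadjusted p under 0.05 and 6 called by DESeq2. Over all 11952 genes at day 2, 1142 had an unadjusted p under 0.05 and DESeq2 called 563. At day 10, 0 of the 16 effector genes and 0 of the 23 receptors passed by edgeR, with 6 and 10 at an unadjusted p under 0.05 and 4 of each list called by DESeq2. Over all 11952 genes at day 10, 1268 had an unadjusted p under 0.05 and DESeq2 called 620. In the endothelia gate at day 10, 1 of 20 receptors and 1 of 17 effector genes passed by edgeR. Of all genes tested there, 0.649% were called. At an unadjusted p under 0.05 there were 7 and 2, and DESeq2 called 5 and 1. P2ry1, an ADP receptor, fell with -1.61 ± 0.25 (adjusted p = 0.0236) and Itpr2, an inositol trisphosphate receptor, with -1.40 ± 0.23 (adjusted p = 0.0257). P2ry1 led a glomerular endothelium-like cluster with 147 of 380 healthy wells of the gate and 9 of 381 at day 10. The part of that shift in the P2ry1 change was not tested.

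The 8 genes of the Arg/N-degron list, tested for the pathway that turns over the Rgs4, Rgs5 and Rgs16 proteins, gave 0 calls by edgeR and 0 by DESeq2 in either gate at either UUO time against healthy, with 0 to 3 at an unadjusted p under 0.05. The 8 measured genes of the nitric oxide and cyclic GMP list gave 0 calls by edgeR and 0 to 3 by DESeq2 in these comparisons, with 0 to 3 at an unadjusted p under 0.05. The 20 immediate early and dissociation genes, which mark handling of cells, gave 0 calls by edgeR and 0 to 3 by DESeq2, with 1 to 4 at an unadjusted p under 0.05. Over all genes, edgeR called 0.15% to 1.32% in these comparisons, so 0 calls in lists this short say little about them. In smooth muscle-like wells the immediate early genes gave 0 calls by edgeR, where 1% and 0.979% of all genes were called. There DESeq2 called 0 of the 20 at day 2 and 1 at day 10, with 2 and 7 at an unadjusted p under 0.05. Over all 11952 genes there, 1142 and 1268 had an unadjusted p under 0.05. The summed level of the immediate early genes in number 1 at day 10 was 12250 CPM in the mesenchyme gate, against 28857 to 35888 CPM in the other numbers. In the endothelia gate it was 12196.5 CPM, against 19911 to 29080 CPM. Over smooth muscle-like wells (healthy, day 2, day 10), Spearman's correlation with their summed CPM was 0.09, 0.27 and 0.38 for Rgs2. For Rgs4 it was 0.05, 0.11 and 0.09, and for Rgs5 -0.05, -0.15 and -0.14. The part of handling in these levels was not tested. Of the 29 receptors tested between gates, 11 were higher and 8 lower in the healthy mesenchyme gate, against 11.3% higher and 12.7% lower over all genes. The higher ones included Ednra, the endothelin A receptor, at 10.17 ± 1.06 (adjusted p = 6.88e-07) and Agtr1b, an angiotensin II receptor, at 10.77 ± 1.02 (adjusted p = 8.56e-07). The lower ones included S1pr1, a sphingosine 1-phosphate receptor, at -8.79 ± 0.88 (adjusted p = 4.38e-07) and Tbxa2r, the thromboxane receptor, at -2.67 ± 0.27 (adjusted p = 5.32e-07).

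The genes whose levels were most like those of a member were found by Pearson's r of log2(CPM + 1), over genes with a mean of at least 10 CPM. Over the 24 sums, where the gate sets most of the range, they were Dgkb, Myl9, Tpm2, Acta2 and Mrvi1 for Rgs5 (each r = 0.99), Ndst3, Tusc5, Ednra and Prkar1b among those closest to Rgs4 (each r = 0.98), and Rcan2, Xirp1, Rasl11b, Itga4 and Myocd for Rgs2 (r from 0.96 to 0.97). Rgs16 had no close match, with Capg highest at r = 0.71. Over the 18 clusters, Myl9 and Rasl12 were closest to Rgs5 (each r = 0.98), Map1lc3a and Ano1 to Rgs4 (r = 0.96 and 0.95), Gata3 and Itga4 to Rgs2 (r = 0.90 and 0.88), and Rpsa and Trp53i13 to Rgs16 (r = 0.84 and 0.81). These values describe sums and clusters that share plates, and carry no test.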

How the data were processed

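Single cells of mouse kidney were measured in 6 plates. The authors deposited whole-number read counts per gene and well, not normalized, with a text layout of the wells. STAR and mm10 are named in the submitters' processing notes without a version. The counting tool, annotation and strandedness are not given in the sources used here. Entries sharing a symbol were added (771 of 24490), leaving 23998. Spike-in counts that the authors deposited were not used.

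Wells with at least 1000 genes and 20000 reads were kept and clustered with scanpy 1.11.5 (2000 variable genes without the 4 members, 30 components, 15 neighbours, Leiden resolution 1, igraph 0.11.9, seed 0). A cluster was named where at least 3 markers of a list were detected in at least 50% of its wells at 2 times the mean over clusters and its 10 leading genes held no equal or larger number from another list. That rule was set after the clusters were seen, doublets were not called, and shares may differ from the study's for this reason. Counts were summed per gate, condition and layout number (1 on plates 1 and 2, 2 on plate 3, 3 on plate 4, 4 on plates 5 and 6), with at least 10 wells per sum. They were filtered with filterByExpr, scaled with TMM and tested with edgeR 4.0.16 (R 4.3.3) with number as block and Benjamini-Hochberg adjustment over all genes tested, threshold 0.05. Tests between gates used the same block, so the pairing of the 2 gates within a condition and number was not modelled. The SE was derived from the change and its F value. The code was tested on simulated data. The block comes from the shared plates: deviations of same-numbered sums correlated at -0.03 to 0.21. Since no label says that numbers are separate mice, p-values measure the spread between these sums. Alternatives used DESeq2 1.42.0, limma 3.58.1 on log2(mean CPM + 1), RLE scaling, no filter, sums per plate, matched wells and left-out numbers. The members and gene lists were chosen with earlier results of these data known. Genes were named by rule: the members, the other Rgs genes, the 2 to 4 genes of smallest p of each list, and the closest 5 by likeness. Some genes that this rule picks are not reported here.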

Additional observations from a re-analysis of the deposited data

Results flagged for a closer look

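Of 36 groups of 4 sums, 6 held a sum that stood apart from the other 3 by the gap test. Chance alone marks about 1 in 20 groups only where groups are independent and values follow a normal distribution, which was not tested. The smooth muscle-like groups hold wells of the mesenchyme-gate groups, so the groups are not independent. The count of flags is therefore not compared with that rate. Rgs4 had 1373 CPM in number 2 of the mesenchyme gate at day 10, while the other 3 numbers lay between 596 and 693 CPM. The same number stood apart within vascular smooth muscle-like wells at day 10, with 1769 CPM of Rgs4, while the others lay between 982 and 1044 CPM. Rgs5 in those wells was low in number 3 at day 10, at 3165 CPM, while the others lay between 4265 and 4395 CPM.

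Rgs5 had 62.5 CPM in number 2 of the healthy endothelia gate, while the others lay between 0.285 and 6.65 CPM, and 1 well of smooth muscle-like cluster 8 held 79.8% of the healthy endothelial Rgs5 reads. Rgs16 in vascular smooth muscle-like wells had 2.94 CPM in number 1 at day 2, while the others lay between 0 and 0.0395 CPM. Rgs16 there had 0.0875 CPM, a single read, in number 2 of healthy kidneys, while the others held 0. Where the other sums hold no read, the gap test marks any read, so that flag carries no weight.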

How the results depend on the processing

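The mesenchyme gate against the endothelia gate kept its 3 member calls in each alternative run, and its count of genes stayed within 1.5 times of 3857. Members that changed call or direction elsewhere are given as log2 fold changes, and causes were not tested. Without the replicate block, Rgs5 at day 10 in the mesenchyme gate gave -0.61 and Rgs4 in smooth muscle-like wells 1.02 at day 2 and 0.82 at day 10, each no longer past the threshold, and uncalled Rgs5 turned to -0.95 in the endothelia gate at day 2 and to 0.58 in the difference between gates at day 2. The replicate block changed no other member's call. With RLE size factors Rgs5 at day 10 gave -0.58 (adjusted p = 0.0514).

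DESeq2 called Rgs16 at day 10 in the mesenchyme gate (2.27), Rgs4 at day 2 in the endothelia gate (4.72), Rgs2 at day 10 there (-1.18), Rgs4 there at day 10 against day 2 (-4.04), Rgs4 in the difference between gates at day 2 (-4.51) and Rgs5 in smooth muscle-like wells at day 2 (-0.28). Sums per plate called Rgs16 at day 10 (2.57) and Rgs5 in smooth muscle-like wells at day 2 (-0.31), with p-values that are too small if plates of 1 number share a mouse. Equal weight per well called Rgs16 at day 10 (2.44). Leaving out the fibroblast-like cluster, chosen after seeing the data, gave -0.27 for Rgs5 at day 10, no longer past the threshold.

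Directions of uncalled values turned as follows. At day 10 in the mesenchyme gate, leaving out the fibroblast-like cluster gave 0.0017 for Rgs2 and 0.26 for Rgs4, and at day 10 against day 2 it gave 0.20 for Rgs2 and 0.021 for Rgs5. Wells matching their gate gave 1.48 for Rgs5 in the endothelia gate at day 10, 0.089 at day 10 against day 2, and -1.89 in the difference between gates at day 10. Equal weight gave -0.52 for Rgs5 in the endothelia gate at day 2, and 0.24 for Rgs16 and 0.13 for Rgs5 in the difference between gates at day 2, where sums per plate gave 0.047 for Rgs16.

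Leaving out each number in turn gave Rgs5 from -0.65 to -0.51 at day 10 in the mesenchyme gate, called only without number 2, and Rgs16 there from 1.82 to 3.10, called only without number 2. Rgs4 in smooth muscle-like wells ranged from 0.93 to 1.12 at day 2, called without number 1 or 2, and from 0.71 to 0.95 at day 10, called only without number 1. Uncalled values changed sign in the mesenchyme gate for Rgs2 at day 2 (-0.46 to 0.16; 0.16 without number 2), Rgs4 at day 10 (-0.20 to 0.087; 0.087 without 1 and 0.06 without 4) and Rgs2 at day 10 against day 2 (-0.35 to 0.21; 0.08 without 3 and 0.21 without 4). In the endothelia gate they did so for Rgs5 at day 2 (-1.89 to 3.33; -1.89 without 3 and -0.29 without 4), Rgs16 at day 10 (-0.36 to 1.47; -0.36 without 3), Rgs5 at day 10 (-2.14 to 0.42; 0.42 without 2) and Rgs5 at day 10 against day 2 (-3.23 to 0.056; 0.056 without 3). In the difference between gates they did so for Rgs16 at day 2 (-0.75 to 0.12; 0.0094 without 1 and 0.12 without 3), Rgs5 at day 2 (-2.77 to 1.51; 1.51 without 3 and 0.45 without 4) and Rgs5 at day 10 (-0.80 to 1.99; -0.80 without 2).

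Counts of called genes moved more than 1.5 times. Without the replicate block they were 42 and 125 at day 2 and day 10 against healthy in the mesenchyme gate and 4 at day 10 against day 2, 12, 50 and 0 in the endothelia gate in that order, and 7 and 26 for the difference between gates. DESeq2 gave 571, 1155 and 377 in the mesenchyme gate, 452, 751 and 289 in the endothelia gate, 353 and 593 for the difference, and 563 and 620 in smooth muscle-like wells. Sums per plate gave 162, 509 and 65, then 122, 307 and 49, then 38 and 163, then 210 and 210 in the same order. Equal weight gave 147, 591 and 65 in the mesenchyme gate, 98, 220 and 12 in the endothelia gate, and 7 and 180 for the difference. With no filter on low counts, the mesenchyme gate at day 10 against day 2 gave 31, the endothelia gate 65, 167 and 19, and the difference at day 10 gave 25. Wells matching their gate gave 11 and 4 at day 10 against day 2 in the mesenchyme and endothelia gates and 7 for the difference at day 2. Leaving out the fibroblast-like cluster gave 100 at day 10. Leaving out each number gave 16 to 34, 28 to 205 and 0 to 5 in the mesenchyme gate, 0 to 11, 6 to 58 and 0 to 6 in the endothelia gate, 0 to 5 and 1 to 11 for the difference, and 34 to 65 and 35 to 61 in smooth muscle-like wells.

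Condition cannot be told apart from plate columns, 4 sums a group limit each test, and Rgs16 in smooth muscle-like wells gave no value under some alternatives.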
